A study of Canis lupus familiaris with 25 samples.

Results

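The libraries compared here were the 11 primary apocrine gland anal sac adenocarcinomas (AGASAC) among 25 canine tumor samples, split by whether a metastasis of the same dog was also sampled. For AGASAC 1 to 4 a sublumbar lymph node metastasis was sequenced as well, and for AGASAC 5 to 11 none was in the series. The remaining samples were those 4 metastases and 10 HGA (hepatoid gland adenoma, a benign tumor of the perianal skin). All were archival formalin-fixed, paraffin-embedded (FFPE) tissue, each primary tumor came from another dog, and tumor-adjacent tissue had been removed according to the study's methods.

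The 4 dogs with a sampled metastasis were 2 females and 2 males aged 8 to 10 years, of which 3 were neutered. The 7 dogs without one were 3 females and 4 males aged 8.5 to 12.5 years, of which 6 were neutered. The labels do not say whether those 7 dogs had a metastasis, so the split describes what was sampled and is not a diagnosis of metastatic and non-metastatic disease. No treatment is given in the labels for either group. Of the 10 HGA samples, 5 were from females and 5 from males, aged 8 to 14 years, and 4 were from neutered dogs.

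AGASAC is a malignant tumor of the secretory glands in the wall of the anal sac of dogs. It is known for early spread to the lymph nodes below the lumbar spine, and its cells keep the simple keratins of glandular epithelium. Spread through lymphatic vessels requires tumor cells to leave the gland, pass through stroma and survive in a node, and genes of adhesion, invasion, growth factor signaling and immune recognition have been studied in that context.

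QuantSeq 3′ sequencing, in which a read stems from the end of a transcript, gave 2581453 to 4218340 counts on genes per primary tumor. The upper limit behind a count of 0 is 3 counts, or 0.729 to 1.05 CPM in these 11 libraries, for counting error only, where CPM is the count scaled to the library size. The gland keratin KRT8 lay at 387 to 739 CPM with a sampled metastasis and at 227 to 758 CPM without one, against at most 0.452 CPM in HGA. The apocrine secretory protein gene PIP lay at 2341 to 4498 CPM and 887 to 5916 CPM in the same order, against at most 1.23 CPM in HGA. Both tumor groups thus carried gland markers at overlapping levels, with a log2FC of 0.09 (SE 0.31) for KRT8 and −0.08 (SE 0.49) for PIP.

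The split ran along the names of the sequencing files. Of the 4 tumors with a sampled metastasis, 3 belonged to one naming series (A), together with the 4 metastases and 9 HGA. All 7 tumors without one belonged to another (B), together with HGA 10, and the series of AGASAC 4 was not given in the sources used here. For the tumors with a listed series, naming series and sampled metastasis cannot be told apart. RNA extraction batches crossed the split in part: batch 5 held 1 tumor with and 2 without, batch 6 held 1 and 1, batch 8 held 2 and 1, and batches 4 and 7 held 2 and 1 tumors without a sampled metastasis only.

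Between the 2 groups, 1 of 13242 genes tested was called, which is 0.00755%, and it was lower in the tumors with a sampled metastasis. The call required log2FC ≤ −1 or ≥ 1 and a Benjamini-Yekutieli (BY) adjusted p ≤ 0.05 in edgeR's quasi-likelihood test, and log2FC is given for tumors with relative to tumors without a sampled metastasis. In the higher direction 0 genes were called, although 484 genes had an unadjusted p under 0.05 with a positive log2FC (3.66%) and 526 with a negative one (3.97%). DESeq2 with the same adjustment and thresholds called 18 genes, of which 7 were higher and 11 lower. The median log2FC of all tested genes was −0.02. The groups did not overlap in 154 genes (1.16%), with 83 higher (0.627%) and 71 lower (0.536%).

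**Figure D1:**
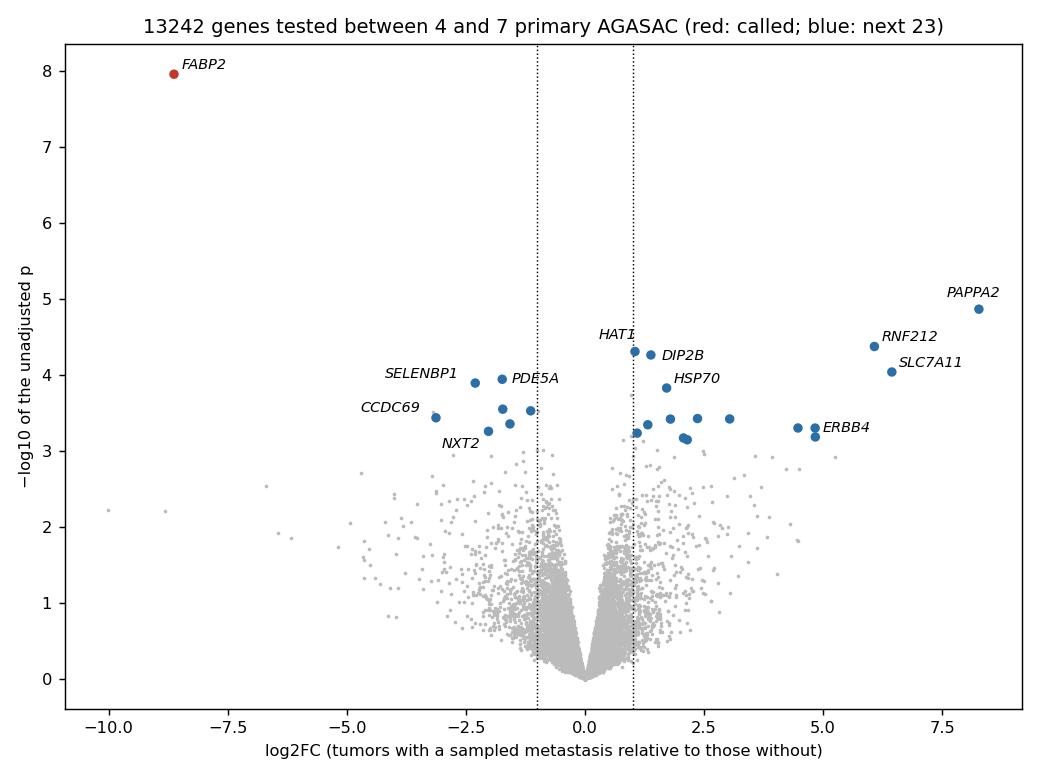
Log2FC of tumors with relative to tumors without a sampled metastasis (x axis) against −log10 of the unadjusted p of edgeR's quasi-likelihood test (y axis) for the 13242 genes tested. The red point is FABP2, the gene called, which stands apart at the upper left. The blue points are the next 23 genes by p that have a symbol and log2FC ≤ −1 or ≥ 1, and dotted lines mark these limits.

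The called gene was FABP2, which encodes the intestinal fatty acid binding protein of absorptive enterocytes. It was nearly absent from the tumors with a sampled metastasis, where AGASAC 1 to 4 had 1, 1, 3 and 3 counts, or 0.301, 0.327, 0.889 and 0.834 CPM. In the tumors without one it had 254 to 1544 counts, with CPM between 88.8 and 504 and a median of 216. The groups were separated by a wide gap, and no tumor lay between them.

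The log2FC of FABP2 was −8.63 (SE 0.66), with a BY adjusted p of 0.00147 in edgeR's quasi-likelihood test. As the lower group held so few reads, the pooled counts, scaled to library size, differed by a ratio of 419, with a 95% counting interval of 213 to 972. The metastases of the same dogs were low as well, at 0.649, 2.39, 1.29 and 0.958 CPM. In HGA the gene lay between 0 and 2.88 CPM, and HGA 10, the HGA of naming series B, had 0 counts.

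Within extraction batches the order was the same. In batch 8, AGASAC 1 and 2 lay at 0.301 and 0.327 CPM and AGASAC 5 at 380 CPM. In batch 6, AGASAC 4 lay at 0.834 CPM and AGASAC 6 at 216 CPM. In batch 5, AGASAC 3 lay at 0.889 CPM, AGASAC 7 at 88.8 CPM and AGASAC 9 at 227 CPM. Each of these 3 batches thus held its tumors with a sampled metastasis more than an order of magnitude below the others.

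In a fit to those 8 tumors with batch as a factor, the log2FC of FABP2 was −8.58 (SE 0.62) and the BY adjusted p was 0.0926, so the call was lost at 4 against 4. The Benjamini-Hochberg (BH) adjusted p was 0.00924. In that fit 0 of 12744 genes were called after BY adjustment and 1 after BH adjustment, and 955 genes (7.49%) had an unadjusted p under 0.05. With batch as a factor over all 11 tumors the log2FC was −8.57 and the BY adjusted p 0.160.

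**Figure D2:**
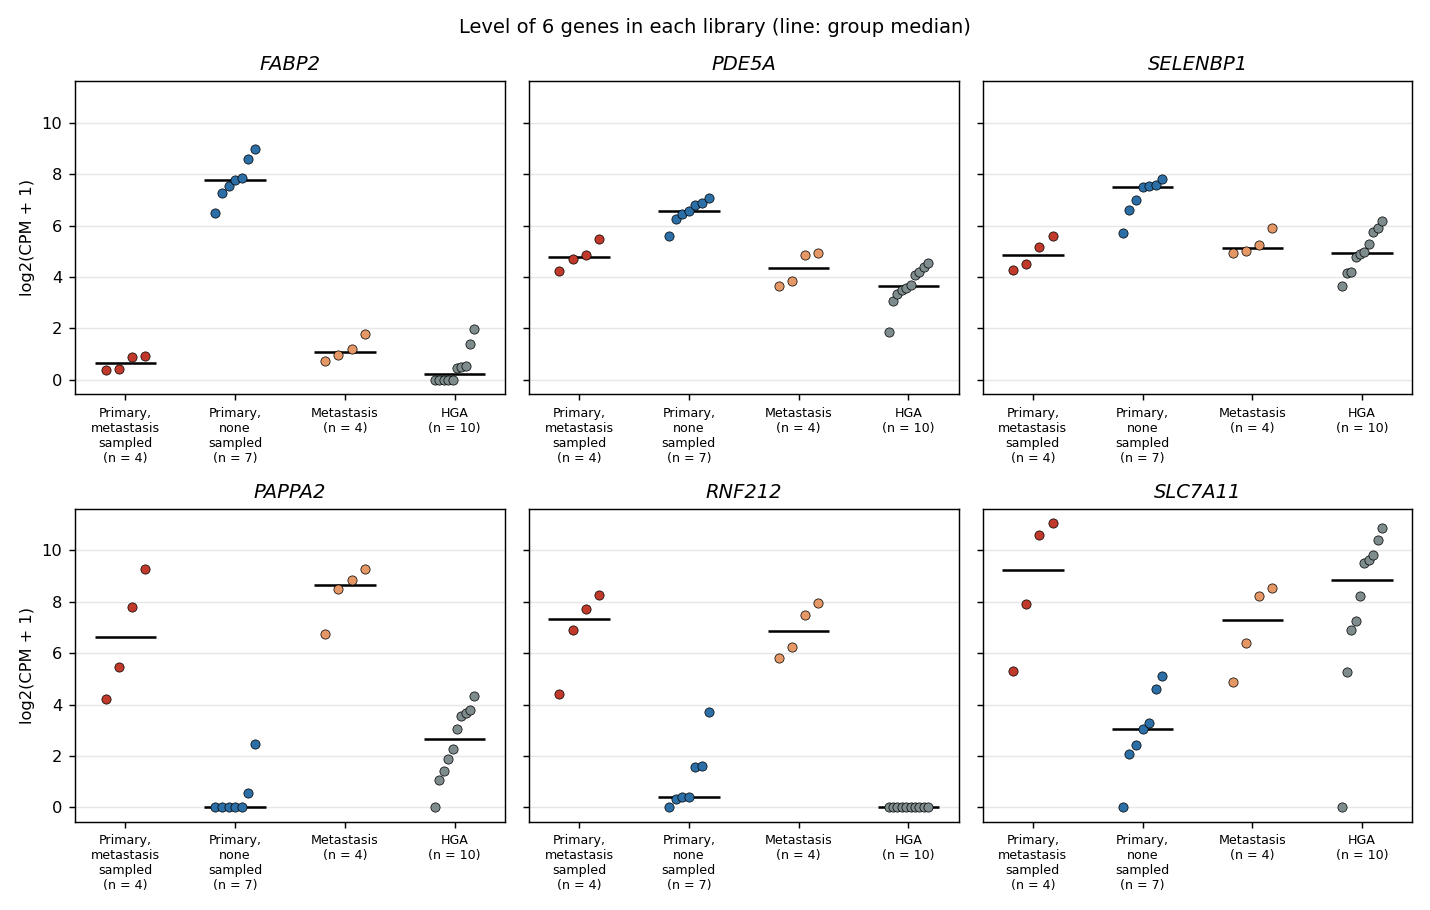
Level of 6 genes on the log2(CPM + 1) scale (y axis) in every library of the 4 sample groups (x axis), with a line at the group median. FABP2, PDE5A and SELENBP1 lay lower and PAPPA2, RNF212 and SLC7A11 higher in the 4 primary tumors with a sampled metastasis than in the 7 without, with no overlap in any of the 6.

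The next 23 genes with a symbol, in order of unadjusted p and with log2FC ≤ −1 or ≥ 1, did not pass the test, and their BY adjusted p was 0.913 for PAPPA2 and 1 for all others. With FABP2 they made 24 genes, of which 16 had a positive and 8 a negative log2FC, and the groups did not overlap in 20 of the 24. Since these genes were ranked by the same contrast, that count describes the choice. The unadjusted p of the 23 ran from 1.37e-05 for PAPPA2 to 7.17e-04 for AFF1.

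PAPPA2 encodes a secreted metalloprotease that cleaves insulin-like growth factor binding proteins. Its CPM was 624, 43.1, 219 and 17.8 in AGASAC 1 to 4, and it was at most 4.51 in the tumors without a sampled metastasis, with a median of 0. The metastases of the 4 dogs had 615, 461, 108 and 360 CPM, and HGA reached 19.1 CPM. The log2FC was 8.27 (SE 1.21), with a BY adjusted p of 0.913 in edgeR's quasi-likelihood test. PAPPA2 passed that test when all 25 samples shared the estimate of the spread (BY adjusted p 0.00602). That fit took the spread in part from HGA, and it treated the metastases as independent of the primary tumors of the same 4 dogs.

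RNF212, a ring finger gene known for its part in meiotic crossing over, had 309, 211, 119 and 20.3 CPM in AGASAC 1 to 4. In the 7 other tumors it lay between 0 and 12.1 CPM with a median of 0.335. The metastases lay at 246, 180, 75.6 and 55.6 CPM, and all 10 HGA had 0 counts. The primary tumor and the metastasis of each dog were thus both above every tumor without a sampled metastasis, with a log2FC of 6.08 (SE 0.99) between the primary tumors.

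SLC7A11 encodes the cystine and glutamate exchanger that supplies cysteine for glutathione. It spread widely with a sampled metastasis, at 242, 1535, 38.8 and 2151 CPM, and lay at 0 to 33.3 CPM without one, with a median of 7.34. The log2FC was 6.44 (SE 1.14) in 11 tumors, 4.82 (SE 1.18) in the 8 tumors of shared batches, and 3.82 with age of the dog as a covariate. The metastasis of AGASAC 4 lay at 28.8 CPM, far below its primary tumor and within the range of the tumors without a sampled metastasis. HGA reached 1865 CPM, while HGA 10 had 0 counts.

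Among genes of cell surface and adhesion, ERBB4, a receptor tyrosine kinase for neuregulins, had 47.6, 113, 5.93 and 2.50 CPM in AGASAC 1 to 4 and at most 6.53 CPM in the others. These groups overlapped, and the log2FC was 4.84 (SE 1.08). ADAM23, a cell surface protein of the disintegrin family without protease activity, had 142, 29.1, 140 and 38.1 CPM against 0 to 13.1 CPM with a median of 0. DSC2, a desmosomal cadherin, had 342, 160, 369 and 193 CPM against 46.7 to 144 CPM with a median of 51.3. ADAM23 and DSC2 did not overlap between the groups, whereas CLDN8, a tight junction claudin, overlapped at 21.4 to 135 CPM against 6.56 to 27.6 CPM.

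Among genes of chromatin and transcription, HAT1, which acetylates newly made histone H4, had 46.1, 54.2, 65.8 and 48.1 CPM in AGASAC 1 to 4. It lay at 22.1 to 33 CPM in the others with a median of 25.7, and its log2FC was 1.05 (SE 0.17). ELL2, an elongation factor of RNA polymerase II, had 157 to 218 CPM against 50.7 to 113 CPM. AFF1, a scaffold of the super elongation complex, had 35.3 to 61.8 CPM against 1.68 to 21.0 CPM. None of these 3 genes overlapped between the groups.

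The heat-inducible chaperone gene HSP70 had 512, 329, 343 and 265 CPM in AGASAC 1 to 4 and 55.6 to 185 CPM in the others, with a median of 97.6. Its log2FC was 1.71 (SE 0.32), and the heat shock list of 19 tested genes had a median log2FC of 0.00. Genes of this chaperone family have near-identical copies, so reads can be divided between them and the value is uncertain. AK4, a mitochondrial adenylate kinase, had 78.0 to 92.8 CPM against 21.9 to 64.2 CPM. PIK3C2G, a class II phosphoinositide 3-kinase, had 8.50 to 27.9 CPM against 0 to 5.21 CPM. The log2FC was 1.38 for DIP2B, 2.36 for FRMD6 and 4.47 for PGBD5, a gene derived from a piggyBac transposase that overlapped between the groups.

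Of the 7 genes with a negative log2FC beside FABP2, PDE5A, the phosphodiesterase that breaks down cyclic GMP, had 27.7, 18, 24.9 and 43.1 CPM in AGASAC 1 to 4. It lay at 46.8 to 135 CPM in the others with a median of 93.4, and the log2FC was −1.74 (SE 0.32). SELENBP1, a selenium-binding methanethiol oxidase, had 35.3, 47.4, 18.1 and 22.0 CPM against 51.0 to 224 CPM with a median of 181. Neither gene overlapped between the groups, although the gap was small between AGASAC 4 and the lowest other tumor for PDE5A and between AGASAC 2 and the lowest other tumor for SELENBP1.

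MAP1LC3A, an LC3 protein of autophagosomes, had 25.8 to 39.2 CPM against 36.2 to 162 CPM, with overlap. EHD4, an ATPase of endocytic recycling, had 16.4 to 26.8 CPM against 32.5 to 59.6 CPM, and SLC2A10, a facilitative glucose transporter, had 6.82 to 17.8 CPM against 21.2 to 52.2 CPM. CCDC69 had 1.63 to 16.3 CPM against 20.4 to 139 CPM, with a log2FC of −3.13 (SE 0.65). NXT2, a cofactor of nuclear RNA export, had 9.95 to 17.2 CPM against 24.4 to 115 CPM. EHD4, SLC2A10, CCDC69 and NXT2 did not overlap between the groups.

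**Figure D3:**
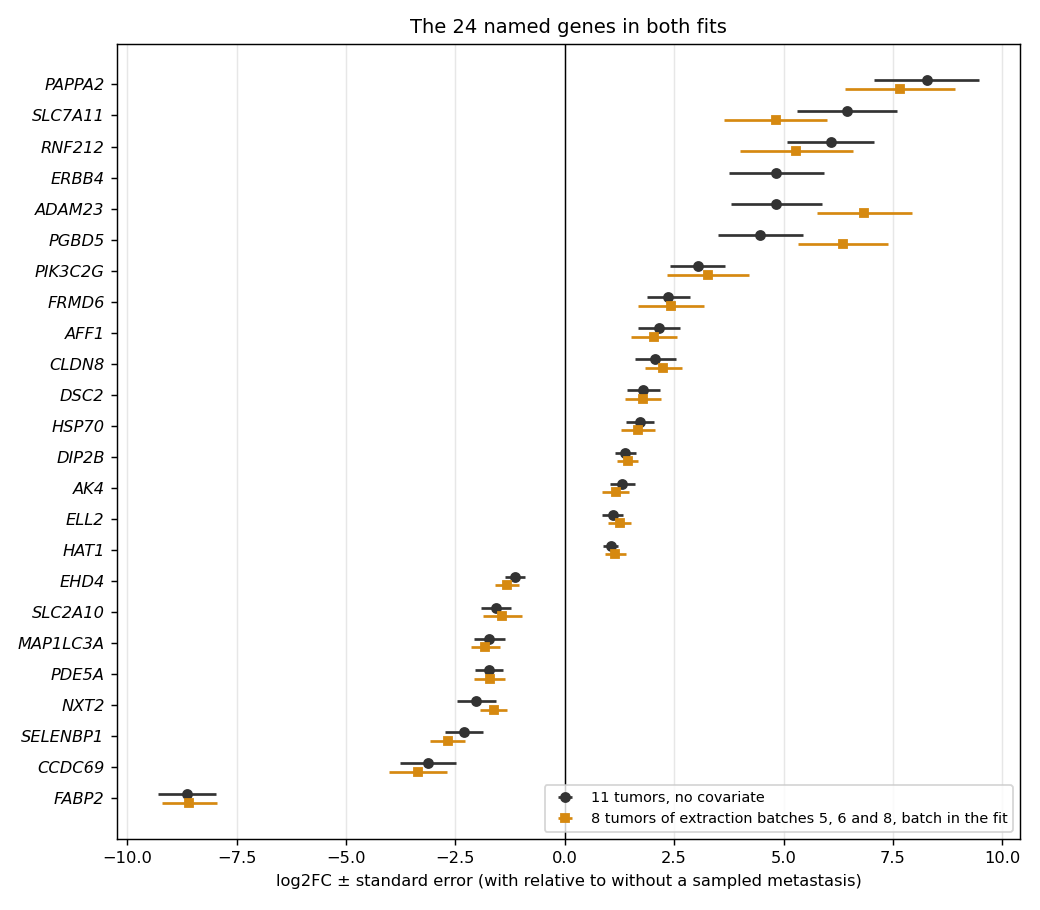
Log2FC with its standard error (x axis) of the 24 genes (y axis) in the fit to 11 tumors without a covariate (circles) and in the fit to the 8 tumors of extraction batches 5, 6 and 8 with batch as a factor (squares). ERBB4 was not among the genes tested in the second fit, and the log2FC of SLC7A11 was 6.44 in the first and 4.82 in the second.

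In the fit within batches, which used 8 of the same tumors, 23 of the 24 genes were tested and ERBB4 was not. The log2FC was 7.66 (SE 1.26) for PAPPA2, 5.30 (SE 1.30) for RNF212, −1.72 (SE 0.36) for PDE5A and −2.68 (SE 0.40) for SELENBP1. PGBD5 and ADAM23 had a log2FC of 6.36 and 6.85 there, against 4.47 and 4.83 in 11 tumors. HGA 10, as the HGA of naming series B, was compared with the 9 HGA of series A. In 5 of the 24 genes it lay past all 9 on the side of the tumors without a sampled metastasis, against 20.0% of all tested genes, and in 4 it lay past them on the other side, against 17.6%. Those shares were near the background, and the part of the naming series in the 24 differences was not tested.

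Lists of genes for 34 pathways and cell types held 697 genes of the table, of which 538 were tested. Of these, 0 were called by edgeR's quasi-likelihood test and 0 by DESeq2, and 35 had an unadjusted p under 0.05, against 7.63% of all genes tested. Of all 13242 genes tested, 6308 had a positive and 6934 a negative log2FC, which is the background for the counts of signs below. The lists were given no set test. In bulk tissue, fewer cells of a type and less RNA per cell cannot be told apart, which applies to every list below.

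**Figure D4:**
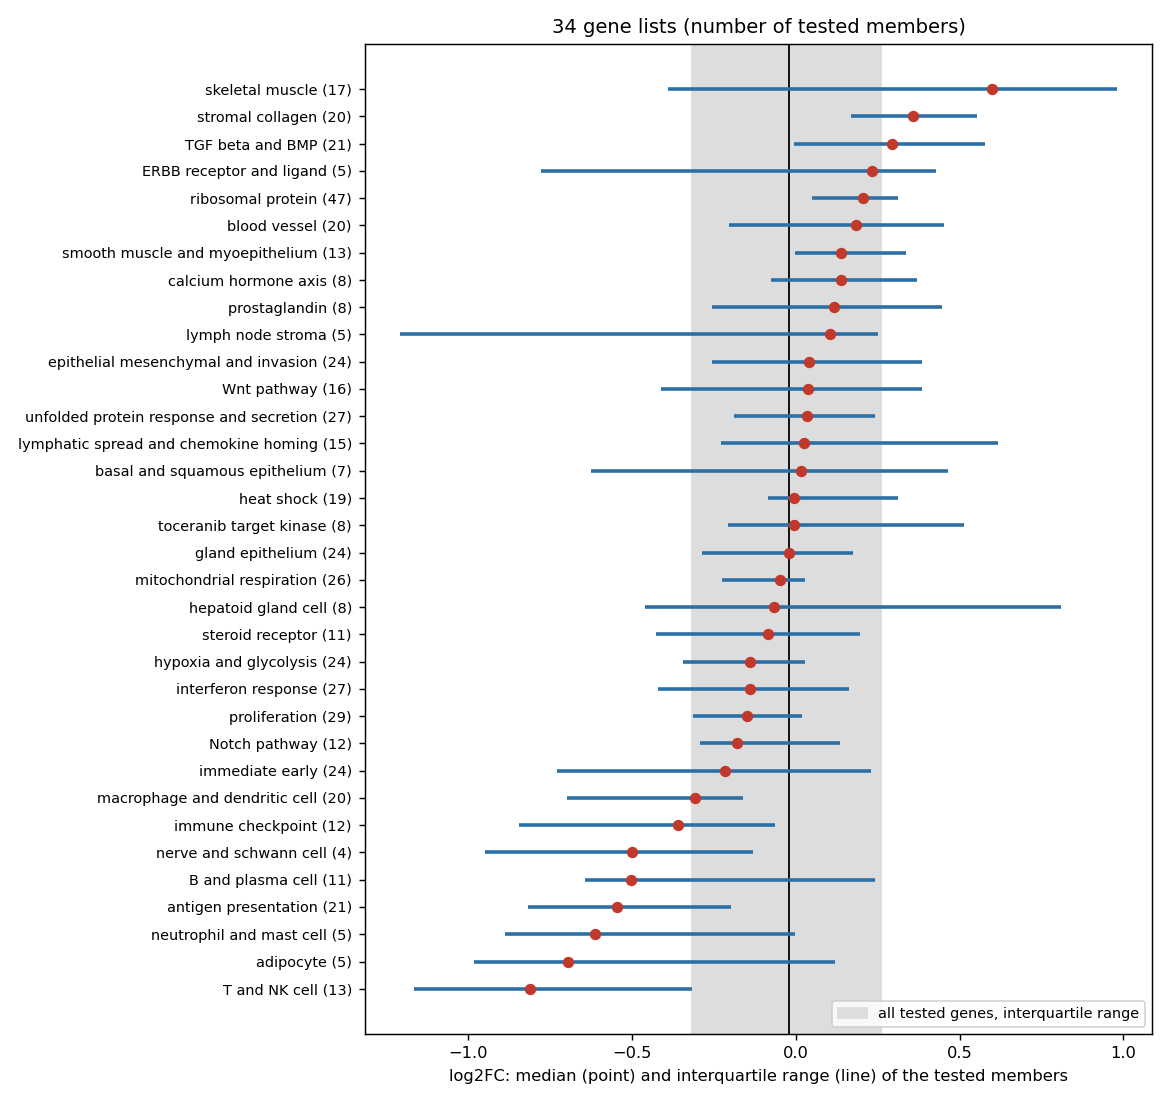
Median (points) and interquartile range (lines) of the log2FC of the tested members of 34 gene lists (x axis), with the number of tested members beside each name (y axis). The grey band is the interquartile range of all tested genes and the black line their median of −0.02; the T and NK cell list has the lowest median, −0.81, and the skeletal muscle list the highest, 0.60.

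Of 21 tested antigen presentation genes, 17 had a negative log2FC, 3 of these with an unadjusted p under 0.05, and the list's median was −0.55 against −0.02 over all tested genes. CD74, the invariant chain of MHC class II, had 179, 138, 97.0 and 427 CPM in AGASAC 1 to 4 and 172 to 938 CPM in the others with a median of 718. DLA-DMB, which helps load peptides on class II molecules, had 19.3 to 30.6 CPM against 23.6 to 88.9 CPM. Both overlapped between the groups, and AGASAC 10 and 11 were as low in CD74 as the tumors with a sampled metastasis, at 191 and 172 CPM.

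Of 13 tested T and NK cell genes 11 had a negative log2FC, and the median was −0.81, but 0 had an unadjusted p under 0.05. The summed level of that list was 65.5 to 133 CPM with a sampled metastasis and 36.7 to 701 CPM without, so the first range lay inside the second. In AGASAC 10, the tumor at 701 CPM, CD8B alone had 592 CPM, the next tumor lay at 294 CPM, and without CD8B the ranges were 63.2 to 120 CPM and 32.8 to 292 CPM. Of 20 macrophage and dendritic cell genes 19 had a negative log2FC (median −0.31), and of 12 immune checkpoint genes 11 did (median −0.36), again with 0 under an unadjusted p of 0.05. The summed macrophage and dendritic cell genes lay at 488 to 823 CPM and 353 to 1350 CPM.

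Of 20 stromal collagen genes 17 had a positive log2FC (median 0.36), with 0 under an unadjusted p of 0.05, and their sum was 1299 to 9606 CPM against 3143 to 7948 CPM. AGASAC 1 was the lowest of all 11 tumors in that sum. Of 21 TGF beta and BMP genes 15 had a positive log2FC (median 0.29), 3 with an unadjusted p under 0.05, and TGFBR1 was the 1 lower gene under it. LTBP1, which holds latent TGF beta in the matrix, had 9.64, 203, 24 and 39.7 CPM against 2.35 to 27.2 CPM, and TGFB1 had 76.0, 5.56, 21.6 and 22.8 CPM against 4.89 to 17.3 CPM. Both overlapped, and 1 tumor was far above the rest in each, AGASAC 2 for LTBP1 and AGASAC 1 for TGFB1. Without that tumor the log2FC was 0.67 for LTBP1, against 2.15 with it, and 0.63 for TGFB1, against 1.53. It was 1.05 for LTBP1 with extraction batch as a covariate and 0.70 for TGFB1 with DV200.

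The Wnt list had a median log2FC of 0.04 over 16 genes. WNT5A, a ligand of non-canonical Wnt signaling, had 17.8, 1.31, 39.7 and 19.2 CPM in AGASAC 1 to 4 and 44.7 to 330 CPM in the others with a median of 92.3. The groups did not overlap, and the log2FC was −2.68 (SE 0.77, unadjusted p 0.00438, BY adjusted p 1 in edgeR's quasi-likelihood test). The metastases of the 4 dogs lay at 4.87, 4.51, 43.7 and 57.5 CPM. None of the other Wnt genes tested had an unadjusted p under 0.05.

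Among receptor kinases targeted by toceranib, a kinase inhibitor used in dogs, RET had 75, 10.5, 5.93 and 1.95 CPM in AGASAC 1 to 4 and 0 to 3.12 CPM in the others, with a median of 0. The groups overlapped through AGASAC 4, and the log2FC was 4.49 (SE 1.14), or 2.60 without AGASAC 1. The metastases of AGASAC 1 and 2 had 63.3 and 24.9 CPM, and those of AGASAC 3 and 4 had 1.29 and 0.639 CPM. The other 7 tested kinases of that list had an unadjusted p of at least 0.05, and the list's median was 0.00.

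Of 24 hypoxia and glycolysis genes 17 had a negative log2FC (median −0.14). The aldolase gene ALDOA had 69.3, 72.5, 69.4 and 66.7 CPM in AGASAC 1 to 4 against 81.9 to 118 CPM, without overlap and with a log2FC of −0.58 (SE 0.16). NDUFS7, a subunit of respiratory complex I, had 58.9 to 74.4 CPM against 75.4 to 125 CPM, also without overlap. It was 1 of 4 genes under an unadjusted p of 0.05 among 26 mitochondrial respiration genes, all of them complex I subunits with a negative log2FC, and the list's median was −0.05.

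Of 29 proliferation genes, 0 had an unadjusted p under 0.05 and the median log2FC was −0.15. Their sum was 753 to 1660 CPM with a sampled metastasis and 850 to 1356 CPM without. The 24 epithelial-mesenchymal and invasion genes had a median of 0.04 with 1 gene on each side under an unadjusted p of 0.05. POSTN, a matrix protein of activated stroma, had 27.1, 393, 59.3 and 62.3 CPM against 13.1 to 55.5 CPM, and PLAUR, the urokinase receptor, had 1.21 to 5.28 CPM against 2.80 to 22.6 CPM. Both overlapped between the groups, and without AGASAC 2 the log2FC of POSTN was 0.40, against 1.84 with it and 1.07 with extraction batch as a covariate.

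PPARG, a nuclear receptor of fat cells and sebaceous glands, had 17 to 63.9 CPM against 51.4 to 121 CPM, with a log2FC of −0.93 (SE 0.34). The fat cell hormone ADIPOQ had 11.8, 1.96, 1.78 and 19.5 CPM against 5.55 to 399 CPM with a median of 130. Both genes overlapped between the groups. The summed adipocyte list lay at 34.1 to 61.1 CPM with a sampled metastasis and 31 to 428 CPM without, and without ADIPOQ at 32.3 to 41.7 CPM and 23.1 to 61.7 CPM. Of its 5 tested genes 2 had a positive and 3 a negative log2FC, and the part of fat tissue in these differences was not tested.

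Skeletal muscle genes varied widely from tumor to tumor. Their sum was 53.3, 864, 40.3 and 645 CPM in AGASAC 1 to 4, 21.6 to 1356 CPM in the others and 10.2 to 17.8 CPM in the metastases. Both groups of primary tumors held libraries at each end of that range. The list's median log2FC was 0.60 over 17 genes, with 0 higher and 1 lower gene under an unadjusted p of 0.05, the muscle enolase ENO3.

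As properties of the libraries, the RNA quality measure DV200 (percent of RNA fragments over 200 nucleotides) averaged 79.0 ± 4.52 (SD, n = 4) and 75.4 ± 2.58 (SD, n = 7), with an exact two-sided permutation p of 0.139. Total counts, genes detected and the share of the 10 most counted genes had an exact permutation p of 0.570, 0.345 and 0.903. The dogs' ages averaged 9.00 ± 0.82 years (SD, n = 4) and 10.4 ± 1.24 years (SD, n = 7), with an exact permutation p of 0.0788. Among 330 possible splits the smallest two-sided p was 0.00606, and 8 measures were tested.

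On the first principal component of the 500 most variable genes, which held 19.1% of the variance, the 4 tumors with a sampled metastasis averaged 20.0 ± 6.22 (SD, n = 4) and the 7 without −11.4 ± 22.7 (SD, n = 7). The exact two-sided permutation p was 0.0182 and the BH adjusted p over 8 measures was 0.145, so the difference did not pass after adjustment. Components were recomputed in each fit without 1 tumor and oriented to a positive difference, so the first can be another axis there. Without AGASAC 9 the difference was 5.28 on the first (exact permutation p 0.752) and 33.3 on the second component (exact permutation p 0.00952). Without AGASAC 7 it was 17.3 on the first (exact permutation p 0.305) and 32.1 on the second (exact permutation p 0.0190). On the first it was 24.8 without AGASAC 1 (exact permutation p 0.150) and 33.7 without AGASAC 3 (exact permutation p 0.05). AGASAC 5 and 8 lay among the tumors with a sampled metastasis on the first component of all 11 tumors.

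**Figure D5:**
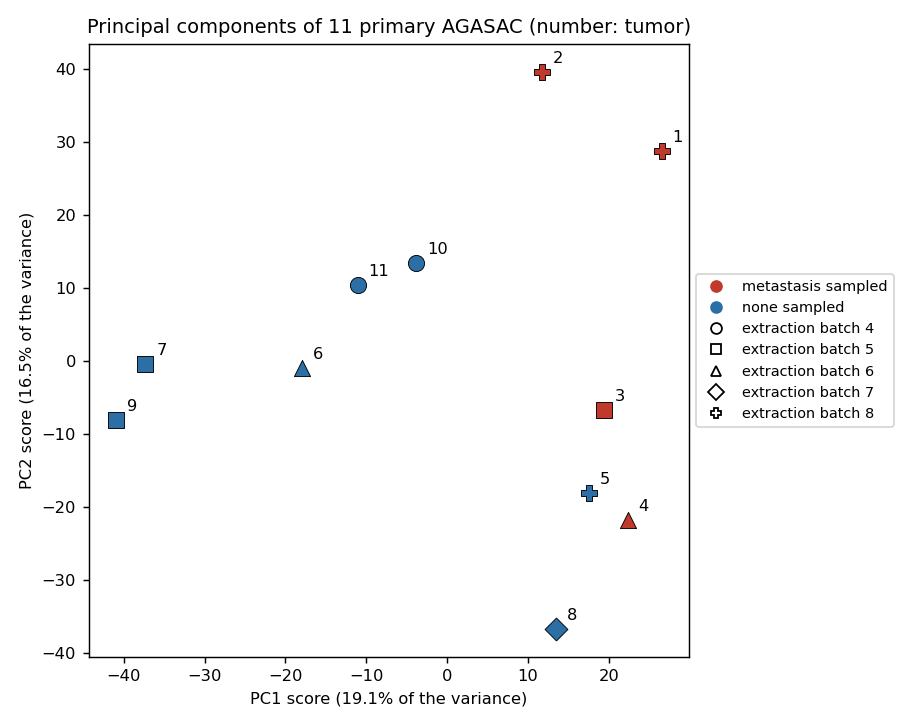
Scores on the first (x axis, 19.1% of the variance) and second principal component (y axis, 16.5%) of the 11 primary tumors, numbered 1 to 11, with color for the group and symbol for the RNA extraction batch. AGASAC 1 to 4 lie on the right, together with AGASAC 5 and 8, and AGASAC 7 and 9 lie farthest to the left.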

How the data were processed

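The authors trimmed the reads with cutadapt, aligned them to CanFam3.1 with STAR, assigned them to genes with featureCounts, repeated for unassigned reads on gene models lengthened at the 3′ end, and divided multi-mapped reads evenly. The deposited values are raw counts. The same table holds normalized counts as a signal, and the authors' own comparison of HGA with AGASAC as a mean, a log2 fold change, its standard error as a score, a p-value and an adjusted p-value, all deposited by the authors and not used here.

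Counts of the 11 primary tumors were fitted in R 4.3.3 with edgeR 4.0.16 (filterByExpr with a minimum count of 10 and a minimum total of 15, TMM, quasi-likelihood test, no covariate, BY adjustment over all genes tested). CPM of single samples used TMM factors over 25 samples. SE is the standard error of the log2FC. Alternatives were DESeq2 1.42.0, RLE or library size alone, other filters, BH adjustment, no fold threshold, robust dispersion, all 25 samples, covariates, and each tumor left out. The test was checked on simulated data. Library measures were compared by exact permutation tests. Within each primary tumor group, a chi-square test of the 6 and 21 pairs of libraries found no duplicates (at least 26.0 per degree of freedom). The sums of 2 lists without 1 gene were added after the data were seen.

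Genes named were those called, then the next by unadjusted p up to 24 with a symbol and log2FC ≤ −1 or ≥ 1. From each list at most the 2 with the smallest p followed. The groups, the lists and this rule were chosen with earlier results of these data known. TGFBR1 and the lists of intestinal genes, fatty acid binding protein genes and neighbours of PDE5A were named after their values were seen. Extraction batches and naming series are from the study's sample sheets. Groups are 1 tumor per dog. No coordinates are printed, because the only gene table used here belongs to UU_Cfam_GSD_1.0, not CanFam3.1.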

Additional observations from a re-analysis of the deposited data

Results flagged for a closer look

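Among 58 groups of values tested for a single library far from the rest (24 genes on the log2(CPM + 1) scale and the library measures), 5 stood out by Dixon's criterion, and chance gives about 1 in 20. All 5 were in the group without a sampled metastasis. PAPPA2 was 4.51 CPM in AGASAC 5, with the next tumor at 0.486 CPM. HAT1 was 33 CPM in AGASAC 10, with the next at 25.9 CPM, and ERBB4 was 6.53 CPM in the same tumor, with the next at 1.34 CPM. AGASAC 11 had the most counts, 4218340, with the next at 2995150, and the lowest DV200, 70.2%, with the next at 75.4%.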

How the results depend on the processing

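FABP2 was the only gene called under RLE, library size alone, no filter on low counts, BH adjustment, no fold threshold, robust dispersion, each of the covariates DV200, age and sex, and each of the 11 fits without 1 tumor, in which its log2FC ran from −8.87 to −8.37. The count of called genes was 18 with DESeq2, 2 with all 25 samples (FABP2 and PAPPA2), and 0 with extraction batch as a covariate, in the 8 tumors of shared batches, or with at least 10 counts required in every library, a filter that removes FABP2 by construction. Within the shared batches BH adjustment called 1 gene, FABP2, and each tumor was left out in turn. That call was lost in 5 of 8 fits, those without AGASAC 3, 4, 5, 6 or 9. The BH adjusted p over the 8 fits was 0.00934 to 0.178 in edgeR's quasi-likelihood test. A batch left with 1 group was dropped as well, so the fits without AGASAC 3 or 5 held 5 tumors. Those without AGASAC 4 or 6 were the same fit to 6 tumors. Of the fits that kept 7 tumors, only the one without AGASAC 9 lost the call (BH adjusted p 0.0510). DESeq2's 18 genes held FABP2 and 11 of the 23 next genes, and PTPRN2, SNAP25 and LOC111098897 among them had 0 counts in 8 to 9 of the 11 libraries. Over 52 named genes and 25 alternatives, 0 log2FC values changed sign, 2 calls were lost (both FABP2) and 12 were gained (11 with DESeq2, 1 with all 25 samples). The 52 were the 24 genes and those genes named from the lists that had an unadjusted p under 0.05. They were chosen by the same contrast and refitted on largely the same tumors, so the lack of sign changes describes the choice. The first principal component differed by 33.6 with a prior count of 0.5 (exact permutation p 0.0606), and by 5.28 to 39.2 when 1 tumor was left out, with the p above the threshold or at 0.05 without AGASAC 1, 3, 7 or 9. The second differed by 4.44 to 33.3, with a p of 0.0190 without AGASAC 7 and 0.00952 without AGASAC 9 (exact permutation tests). Both components were recomputed in each of these fits, so their order can change between fits. Without 1 tumor, the share of the 10 most counted genes differed by −0.353 to 0.255 percentage points, reversed without AGASAC 4 (0.196), 6 (0.255), 7 (0.200) or 9 (0.0450), total counts by 80632 to 410944, DV200 by 1.76 to 5.39 and age by −1.76 to −1.08 years. Total counts and age fell under an exact permutation p of 0.05 without AGASAC 11 (0.0476 and 0.0381) and DV200 without AGASAC 2 (0.0333). The causes were not tested. No paired analysis was possible because the 2 groups were different dogs with 1 primary tumor each (AGASAC 1 to 4 against 5 to 11). At 3 counts or fewer per library, the level of FABP2 in the lower group is limited by depth.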

Other observations

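Genes of intestinal epithelium and of the fatty acid binding protein family were looked at beside FABP2 after its values were seen. Of 19 intestinal epithelium genes 14 were in the table and 0 passed the filter on low counts, and their sum was 3.26 to 17.5 CPM with a sampled metastasis and 4.24 to 49.6 CPM without. In AGASAC 6 the sum was almost entirely SI, the sucrase-isomaltase of the small intestine, with 135 counts against 0 in each of the other 10 primary tumors. Of the other family members in the table, FABP3 had 2 to 28 counts, FABP4 0 to 13, FABP5 0 to 20 and FABP7 0 to 31 per primary tumor, all far below the 254 to 1544 counts of FABP2 in the tumors without a sampled metastasis. A list of 8 neighbours of PDE5A, with PDE5A itself, was also looked at. Of its 6 tested genes 3 had a positive and 3 a negative log2FC, and only PDE5A had an unadjusted p under 0.05. LOC111093690 of that list had 0 counts in each of AGASAC 1 to 4 and 17, 0, 0, 9, 10, 0 and 25 in AGASAC 5 to 11. The part of gene location in these values was not tested.

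LOC111093691, an unnamed gene of the table that the naming rule leaves out and that was picked after its values were seen, had 3.92, 4.58, 0.297 and 10.8 CPM in AGASAC 1 to 4 and 15.1 to 72.2 CPM in the others. The groups did not overlap, and the log2FC was −3.20 (SE 0.65, BY adjusted p 1 in edgeR's quasi-likelihood test and 8.72e-04 in DESeq2).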
